A study of Mus musculus with 2 samples.

Results

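The alpha-beta T cells without Foxp3 were 88 of 31252 kept cell barcodes from ulcerated mouse skin, 32 in the Has2_TG library and 56 in the WT library. A barcode was kept with at least 200 detected genes and at most 15% mitochondrial UMIs, a UMI (unique molecular identifier) being 1 counted RNA molecule. A kept barcode was a member with at least 2 UMIs of Cd3e, Cd3d and Cd3g together and at least 1 UMI of Trac, Trbc1 and Trbc2 together. It also had 0 UMIs of Trdc and Trdv4, 0 of Foxp3 and 0 of Csf1r, under 1% of its UMIs from S100a8 and S100a9, and under 0.3% from Col1a1, Col1a2 and Col3a1. These values chose the cells, so the levels of these genes are given as a description.

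The study compared ulcerated lesional skin of Has2_TG mice, labelled as overexpressing the hyaluronan synthase Has2 in the whole body, with that of WT mice. The lesions are labelled ulcerative dermatitis, and both groups had been tape-stripped 40 to 50 times a day for 15 days. Skin was taken apart with dispase, accutase and collagenase, and 1 library per genotype was made with the 10x GEM-X 5' v3 chemistry. The labels used here give no promoter for the transgene, no age, strain or sex and no number of animals, and the treatment text starts in mid-sentence, so an earlier step may be missing. They name polyA RNA for the Has2_TG library and total RNA for the WT library, and call them replicates 2 and 1.

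Alpha-beta T cells recognise peptides held by MHC molecules, through a receptor whose 2 chains are each joined from V segments and a constant part, with the Cd3 chains carrying the signal inward. CD4 cells read MHC class II and direct other cells through cytokines. CD8 cells read MHC class I and can kill their target. In mouse skin they live beside gamma-delta T cells, many of which make IL-17, and beside Foxp3 regulatory T cells, which restrain the others. Hyaluronan, the product of Has2, is a matrix polymer that T cells bind with Cd44.

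The Has2_TG library held 14415 kept barcodes with a median of 4485 UMIs, and the WT library held 16837 with a median of 4348. Has2 (ENSMUSG00000022367) had 11552 UMIs or 85.8 CPM (UMIs per 1000000 UMIs summed over the same cells) over the kept Has2_TG barcodes, and 10266 UMIs or 71.5 CPM over the kept WT barcodes. Whether the transgene's transcript can be counted under this gene is not stated. Of the members, 1 in the Has2_TG library and 1 in the WT library held a Has2 UMI. The libraries shared 79 barcode sequences, none of them a member's. With 1 library per genotype no test between genotypes was possible: every interval is a 95% interval for counting error only, and a difference between the libraries cannot be told apart from a difference between animals or preparations. Fewer cells of a type and less RNA per cell cannot be told apart in a summed level.

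The members were shallow. They had a median of 3314.5 UMIs (700 to 32861) and 1590.5 genes in the Has2_TG library, against 3847.5 UMIs (1078 to 18904) and 1724 genes in the WT library. Just inside the rule lay 7 Has2_TG and 12 WT members with exactly 2 Cd3 UMIs, and just outside it lay 6 and 12 cells with 1 Cd3 UMI. For the receptor chains, 6 Has2_TG and 5 WT members had exactly 1 UMI, while 7 and 7 cells were outside with 0. A single Foxp3 UMI put 3 Has2_TG and 3 WT cells outside, and a single Trdc or Trdv4 UMI put 1 and 1 outside.

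The label was set beside genes of other cells, as a description. The rule held Csf1r at 0 and capped S100a8, S100a9 and the collagen genes. Low sums of macrophage, neutrophil and fibroblast markers were thus partly set by it. The highest share of S100a8 and S100a9 in a member was 0.726% in the Has2_TG and 0.0935% in the WT library. Sums over the members had 2573 CPM in the Has2_TG library and 2606 CPM in the WT library for the 6 Cd3 and receptor constant genes of the rule. Trbc2 was seen in 28 of 32 Has2_TG and 45 of 56 WT members and Trac in 14 and 34. Trbc2 is no proof of an alpha-beta cell, since 31 of 45 Has2_TG and 112 of 135 WT gamma-delta T cells also held it. Of 10 macrophage and monocyte markers, 7 in the Has2_TG and 3 in the WT members were at 0, with a summed level of 49.8 and 288 CPM. Adgre1 was at 0 in both and Lyz2 had 2 and 1 UMIs. Ly6c2, which CD8 T cells of mice can also carry, had 4 UMIs in 2 Has2_TG cells and 58 UMIs in 13 WT cells, most of the WT sum. The 8 neutrophil markers summed to 718 CPM in the Has2_TG and 271 CPM in the WT members, and Csf3r was at 0 in both. Most of the Has2_TG sum was Il1r2, with 54 UMIs in 5 Cd4 cells, a decoy receptor that 22 of 38 Has2_TG Foxp3 T cells also held. The WT members had 27 UMIs of Il1r2, 25 of them in 1 mixed barcode. Fibroblast markers had 14 and 14 UMIs, endothelial markers 14 and 26, mast cell markers 3 and 10 and B cell markers 4 and 2. Of 7 NK and innate lymphoid markers the sums were 36 and 44 UMIs, mostly Il1rl1, which T cells also make, and Ncr1 was at 0 in both.

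3 barcodes carried a second cell type in quantity and were picked out after their values were seen, as members with at least 20 UMIs of keratinocyte or dendritic markers. The Has2_TG one had 32861 UMIs, 23.4% of all member UMIs in its library, with 1266 UMIs of 8 keratinocyte markers and 409 of Krt14. A WT one had 18904 UMIs and 135 keratinocyte UMIs. The other WT one had 11766 UMIs, with 142 UMIs of the dendritic markers. Of these 140 were the class II gene H2-Ab1, so its second cell type was not identified. Without these 3 mixed barcodes the keratinocyte markers had 5 UMIs in the Has2_TG and 7 in the WT members, and the WT dendritic markers had 0. Results that rest on them are given with and without them. Scrublet marked none of them as a doublet candidate.

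The members were a smaller share of the Has2_TG library than of the WT library, with intervals that overlap. They made up 0.222% (0.152 to 0.313) of the kept Has2_TG barcodes and 0.333% (0.251 to 0.432) of the kept WT barcodes, a ratio of 0.667 with an interval of 0.418 to 1.05. Of the other T cells, gamma-delta T cells had a ratio of 0.389 (0.271 to 0.549) and Foxp3 T cells one of 2.34 (1.31 to 4.29). Among all gated T cells, 123 in the Has2_TG and 218 in the WT library, the members had nearly the same share, 26.0% and 25.7%, with a ratio of 1.01 (0.635 to 1.59).

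**Figure D1:**
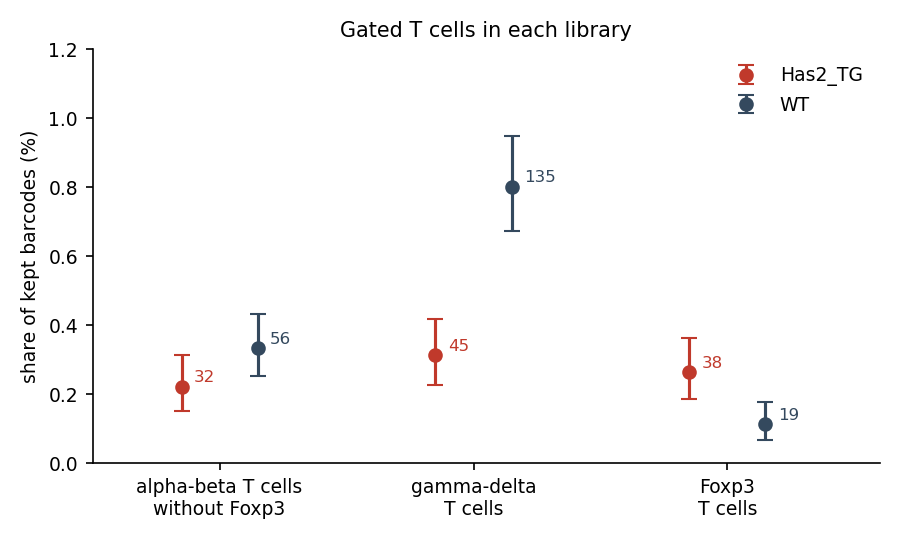
Share of kept barcodes (percent, vertical axis) that were alpha-beta T cells without Foxp3, gamma-delta T cells or Foxp3 T cells in the Has2_TG and the WT library, with exact 95% binomial intervals and the number of cells beside each point. The members stand at 0.222% and 0.333%, gamma-delta T cells at 0.312% and 0.802%, and Foxp3 T cells at 0.264% and 0.113%.

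The members were split by coreceptor genes that the rule does not use. Cd4 cells had a Cd4 UMI and none of Cd8a or Cd8b1, and Cd8 cells the reverse. No member had both. Cd4 cells were 16 of 32 in the Has2_TG library (50.0%, 31.9 to 68.1) and 16 of 56 in the WT library (28.6%, 17.3 to 42.2). Cd8 cells were 3 of 32 (9.38%, 1.98 to 25.0) and 13 of 56 (23.2%, 13.0 to 36.4). The other 13 Has2_TG and 27 WT members showed neither gene, 40.6% and 48.2%. Each pair of intervals overlaps. Cells with neither gene cannot be called double-negative: at a fixed depth of 1000 UMIs, the expected share with neither would be 71.8% in the Has2_TG and 73.1% in the WT library. At that depth the expected share of Cd4 cells was 21.3% and 13.6%, and that of Cd8 cells 6.83% and 13.3%, in the same order as unthinned.

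Outside the members, Cd4 was seen in 0 of 45 Has2_TG and 0 of 135 WT gamma-delta T cells. It was seen in 2.09% and 0.215% of macrophages, at median depths of 7733 and 9069 UMIs. Whether the macrophage share is free RNA or RNA of the macrophages was not tested. Cd8a or Cd8b1 was seen in at most 0.181% of macrophages, neutrophils or fibroblasts of either library. Summed over the members, Cd4 had 227 CPM in the Has2_TG and 156 CPM in the WT library, a ratio of 1.46 (0.881 to 2.39). Cd8b1, a chain of the CD8 coreceptor, had 8 UMIs in 3 Has2_TG cells and 39 UMIs in 11 WT cells, or 56.9 and 160 CPM. Its ratio was 0.355 (0.143 to 0.770), and 0.451 without the mixed barcodes. Cd8a had 6 UMIs in 2 cells and 16 UMIs in 9 cells, with a ratio of 0.648 (0.208 to 1.74).

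**Figure D2:**
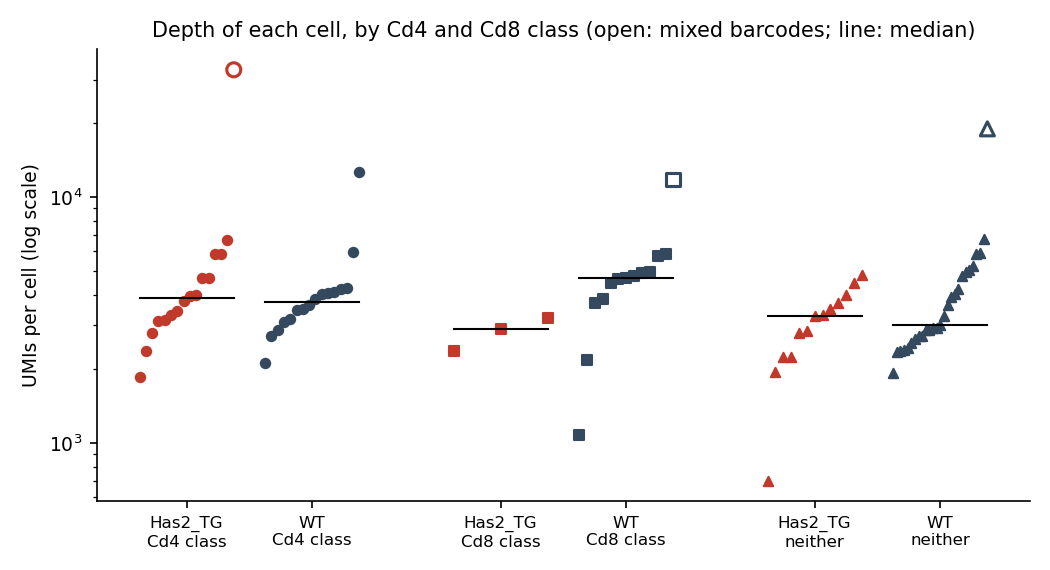
UMIs per member (log axis) by coreceptor class, each point 1 cell of the Has2_TG or the WT library, with the median as a line and the 3 mixed barcodes as open points. Cd4 cells had medians of 3862.5 and 3748 UMIs and cells with neither gene 3272 and 3019, while the 3 Has2_TG Cd8 cells had a median of 2907 against 4665 for the 13 WT ones.

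The 5' libraries read the V segments of the receptor, a property the rule did not use. A TRBV segment was found in 25 Has2_TG members (78.1%) and 41 WT members (73.2%), and a TRAV segment in 15 (46.9%) and 27 (48.2%). In gamma-delta T cells, whose receptor does not use them, TRAV was found in 2 of 45 Has2_TG and 5 of 135 WT cells and TRBV in 7 and 27. In Foxp3 T cells TRAV was found in 17 of 38 and 5 of 19, and TRBV in 35 and 13. Of the members, 29 Has2_TG and 51 WT cells held a UMI of Trac, a TRAV or a TRBV segment. The other 3 and 5 rested on Trbc1 or Trbc2 alone, which do not separate them from gamma-delta T cells. A TRBV UMI, also found in 7 and 27 gamma-delta T cells, does not separate them either. A UMI of Trac or a TRAV segment was held by 23 of 32 Has2_TG and 44 of 56 WT members.

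No segment was in more than 22.2% of the cells with a segment of its family. The members used 18 TRBV segments in the Has2_TG and 17 in the WT library, of 35 in the files, and 12 and 18 TRAV segments, of 130. The most frequent TRBV segment of the Has2_TG members was Trbv12-2, in 4 of 25 cells (16.0%, 4.54 to 36.1). That of the WT members was Trbv13-2, in 8 of 41 cells (19.5%, 8.82 to 34.9). Among TRAV segments Trav7-4 and Trav13-1 were level at the top in the Has2_TG members, each in 3 of 15 cells (4.33% to 48.1%). In the WT members Trav6-5 led, in 6 of 27 (22.2%, 8.62 to 42.3). Without the mixed barcodes Trbv12-2 and Trbv13-2 were level at the top in the WT members, in 6 cells each. By UMIs, Trbv1 had 38 in 3 Has2_TG cells and 24 in 3 WT cells, and Trbv17 had 19 in 2 and 30 in 5. Segments seen in a single cell were 10 of the 18 in the Has2_TG members and 3 of the 17 in the WT members. In 5 Has2_TG and 10 WT members, 2 or more TRBV segments were counted. TRAV segments come in near-identical copies, so reads can be split among them, and these are segment counts, not clonotypes.

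**Figure D3:**
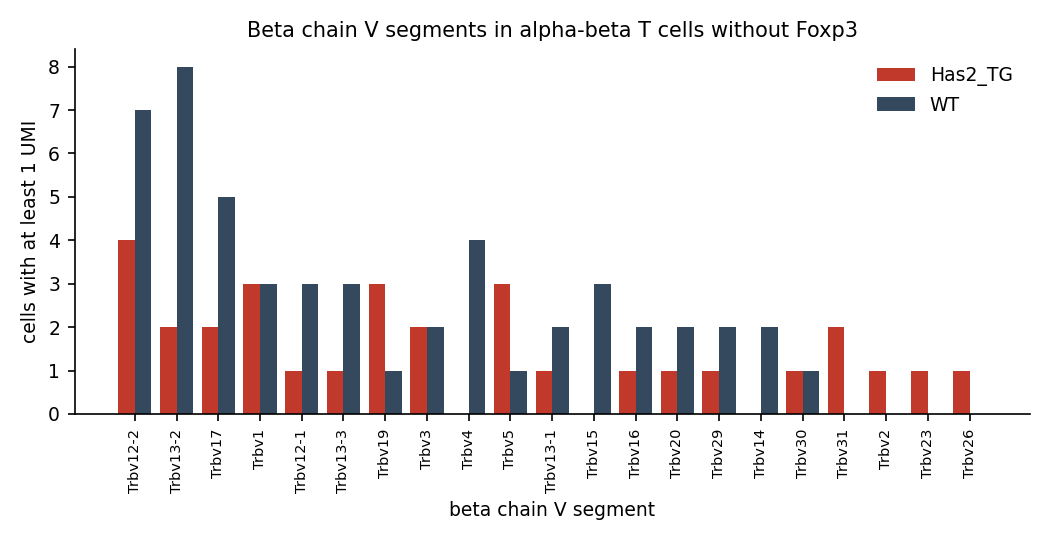
Number of members with at least 1 UMI of each TRBV segment, for 25 Has2_TG and 41 WT cells in which any TRBV segment was found. The counts run from 1 to 4 cells in the Has2_TG library and from 1 to 8 cells in the WT library, spread over 18 and 17 segments.

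The segments Trav11 and Traj18, which form the NKT cell alpha chain, were in 0 Has2_TG and 0 WT members. Of the MAIT cell chain, the V segment Trav1 was in 1 Has2_TG and 5 WT members and the joining segment Traj33 in 0 and 0. Taken as 3 cells of the total, a count of 0 allows up to 9.38% of the Has2_TG and 5.36% of the WT members to hold such a UMI, and says less of cells that use the chain. Gamma chain RNA, from constant or V genes, was in 6 Has2_TG and 8 WT members, of which 1 and 1 had no Trac, TRAV or TRBV UMI. Sox13, a factor of IL-17-producing gamma-delta T cells, was in no member, against 5 of 45 Has2_TG and 16 of 135 WT gamma-delta T cells.

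Genes that the rule did not use were ranked by their level in the members over macrophages, neutrophils and fibroblasts of the same library. The leading gene was Gimap3, a GTPase of lymphocyte survival, at 412 CPM in the Has2_TG and 563 CPM in the WT members. Icos, a costimulatory receptor, came next: 26 of 32 Has2_TG members (81.2%) and 44 of 56 WT members (78.6%) held it, against at most 0.359% of macrophages, neutrophils or fibroblasts. Camk4, a calcium-dependent kinase, was in 30 of 32 and 50 of 56. Lck, the kinase that starts receptor signalling, was in 19 and 32, and Cd2, an adhesion receptor, in 22 and 34. The other genes of the 15 were the adaptors Sh2d2a, Skap1 and Grap2, Cxcr6, Il2rb, Tcf7, Gimap4, Tnfrsf18, Pdcd1 and Ms4a4b. Since the rule chose T cells, this is a description. Between the libraries, Icos had 1059 CPM in the Has2_TG and 962 CPM in the WT members (ratio 1.10, 0.891 to 1.36), below its 2289 and 1799 CPM in gamma-delta T cells and 1909 and 2097 CPM in Foxp3 T cells. Without the mixed barcodes the Icos ratio was 1.28 (1.03 to 1.58). Lck had 291 and 255 CPM (1.14, 0.751 to 1.72) and Cd2 had 391 and 411 CPM (0.951, 0.672 to 1.33). Camk4 had 1073 and 1418 CPM (0.757, 0.621 to 0.919), with a ratio of 0.827 (0.675 to 1.01) without the mixed barcodes.

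Between the libraries, a gene was measured with at least 20 UMIs over all members and counted as apart at 2-fold or more, without a test. Of 3659 measured genes, 214 (5.85%) were 2-fold higher in the Has2_TG members and 348 (9.51%) 2-fold lower. Without the mixed barcodes these were 164 (5.3%) and 209 (6.75%) of 3095 genes. The median log2 ratio, with 0.5 counts added, was -0.09 over all measured genes, -0.01 without the mixed barcodes and 0.02 under TMM scaling. Each gene list is described by its measured members and its median ratio beside these values.

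Genes of activated and regulatory T cells other than Foxp3 stood higher in the Has2_TG members. Of 11 listed genes 7 were measured, all 7 were higher and 5 past 2-fold, with a median log2 ratio of 1.25, and 1.46 without the mixed barcodes. Without the top cell of each gene 5 were measured, 3 were higher and all 3 past 2-fold. Il2ra, the high-affinity subunit of the IL-2 receptor, had 73 UMIs in 15 Has2_TG cells and 53 UMIs in 14 WT cells, or 519 and 218 CPM, a ratio of 2.38 (1.65 to 3.46). Tnfrsf4 (OX40), a costimulatory receptor that activation induces, had 89 UMIs in 12 cells and 35 in 15, or 633 and 144 CPM, a ratio of 4.40 (2.94 to 6.70). A single Has2_TG cell held 33.7% of those Tnfrsf4 UMIs. Ctla4, an inhibitory receptor, had 51 UMIs in 10 cells and 37 in 17, a ratio of 2.38 (1.53 to 3.74). Tnfrsf18 (GITR) had 355 and 333 CPM, a ratio of 1.07 (0.735 to 1.54). Foxp3 T cells, in which these genes are also expressed, were a larger share of the Has2_TG than of the WT library, and members with undetected Foxp3 cannot be told apart from cells without it.

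The classes differed in how they carried these genes. In Cd4 cells, Il2ra had 411 CPM in the Has2_TG and 103 CPM in the WT library, with 6 of 16 and 4 of 16 cells holding it. In cells with neither coreceptor it had 879 and 398 CPM, in 9 of 13 and 9 of 27 cells. In Cd8 cells it had 0 UMIs in the Has2_TG and 1 UMI in the WT library. Tnfrsf4 had 595 and 251 CPM in Cd4 cells, where 10 of 16 Has2_TG and 8 of 16 WT cells held it. The Has2_TG Cd4 sums include the mixed barcode of 32861 UMIs, out of 92375 in the class. Without it Il2ra had 639 CPM and Tnfrsf4 924 CPM in the Has2_TG Cd4 cells.

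Inhibitory receptors and exhaustion genes had 5 of 10 measured, 4 higher and 3 past 2-fold, with a median log2 ratio of 1.04. Tox, a transcription factor of chronically stimulated T cells, had 313 CPM in the Has2_TG and 132 CPM in the WT members, a ratio of 2.38 (1.47 to 3.87). Tigit had 263 and 127 CPM, 2.06 (1.25 to 3.44), and Pdcd1 (PD-1) 334 and 222 CPM, 1.51 (0.996 to 2.27). Over Cd4 cells alone the list's median was -0.12, and 0.11 without the mixed barcodes. Tox in Cd4 cells had 206 CPM in the Has2_TG and 296 CPM in the WT library, or 319 and 296 CPM without the mixed barcodes. In cells with neither coreceptor it had 628 and 61.9 CPM.

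Type 17 genes had 6 of 12 measured, of which 5 were higher and 3 past 2-fold, with a median log2 ratio of 1.18 with and without the mixed barcodes. Rora, a nuclear receptor of this programme, had 161 UMIs in 27 of 32 Has2_TG cells and 152 UMIs in 39 of 56 WT cells, or 1144 and 625 CPM, a ratio of 1.83 (1.46 to 2.30). Maf, a transcription factor of several helper subsets, had 206 and 78.1 CPM, 2.64 (1.43 to 4.98). In Cd4 cells without the mixed barcodes the log2 ratio of Maf was -0.02. The membrane channel gene Tmem176a had 206 and 69.9 CPM, 2.95 (1.57 to 5.72), while its neighbour Tmem176b had 163 and 181 CPM, 0.904 (0.521 to 1.53). Il23r, a chain of the IL-23 receptor, was in 6 Has2_TG and 6 WT cells. Il17a itself was in 2 of 32 Has2_TG members, with 3 and 1 UMIs, and in 0 of 56 WT members.

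Zbtb16 (PLZF), a factor of innate-like T cells, was in 5 Has2_TG members, all 5 with neither coreceptor, and in 6 WT members, 5 of them with neither. Blk, a kinase that IL-17-producing gamma-delta T cells of mice use, was in 3 and 6 members, 3 and 5 with neither coreceptor. The part of gamma-delta T cells with undetected Trdc in these counts was not tested.

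Genes of naive and recirculating T cells stood lower in the Has2_TG members. Of 10 listed 9 were measured, 2 were higher, 1 was past 2-fold higher and 2 past 2-fold lower, with a median log2 ratio of -0.46 and, without the mixed barcodes, -0.21. Satb1, a chromatin organiser, had 505 CPM in the Has2_TG and 1040 CPM in the WT members, a ratio of 0.485 (0.368 to 0.634). Bach2, a repressor that holds T cells in a resting state, had 476 and 855 CPM, 0.557 (0.416 to 0.737). Il7r, the receptor of the survival cytokine IL-7, had 860 and 1225 CPM, 0.702 (0.564 to 0.870), and 0.861 without the mixed barcodes. Tcf7, a factor of naive and memory T cells, had 320 and 386 CPM, 0.828 (0.567 to 1.19), and 1.03 without them. Ccr7, the lymph node homing receptor, went the other way, with 206 and 82.2 CPM, 2.51 (1.37 to 4.68). In Cd8 cells alone, 3 of them in the Has2_TG library, 3 of 4 measured genes were higher and the list's median was 0.71. Over Cd4 cells alone it was -1.16, and -0.63 without the mixed barcodes, where Lef1 had 202 CPM in the Has2_TG and 429 CPM in the WT Cd4 cells.

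Genes of the CD8 lineage had 4 of 6 measured, none higher and 2 past 2-fold lower, with a median log2 ratio of -0.91 and, without the mixed barcodes, -0.64. Besides Cd8b1 this was Runx3, the factor of CD8 and tissue-resident T cells, with 9 UMIs in 8 Has2_TG cells and 39 UMIs in 24 WT cells, 0.399 (0.170 to 0.838). Cytotoxicity genes had 7 of 12 measured, 3 higher and 1 past 2-fold lower, with a median of -0.24, or 0.16 without the mixed barcodes. That 1 was Nkg7, a protein of cytotoxic granules, with 8 UMIs in 5 Has2_TG cells and 88 UMIs in 20 WT cells, or 56.9 and 362 CPM, a ratio of 0.157 (0.0658 to 0.324). In Cd8 cells Nkg7 was in 1 of 3 Has2_TG and 8 of 13 WT cells, in Cd4 cells in 4 of 16 and 4 of 16, and in cells with neither in 0 of 13 and 8 of 27. Gzmb, a granule protease, had 242 CPM in the Has2_TG and 238 CPM in the WT members, 1.01 (0.644 to 1.57).

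Ccl5, a chemokine that effector T cells store, showed how few cells carry a sum. It had 161 UMIs in 7 Has2_TG cells and 229 UMIs in 18 WT cells, or 1144 and 941 CPM, a ratio of 1.22 (0.988 to 1.49). In the Has2_TG library 157 of these UMIs lay in 6 Cd4 cells and 4 in 1 Cd8 cell, and 2 cells held 73 and 54. In the WT library 198 UMIs lay in 9 Cd8 cells, 24 in 6 cells with neither coreceptor and 7 in 3 Cd4 cells. The sums were alike, but the WT sum lay mostly in Cd8 cells and the Has2_TG sum mostly in the 2 cells with 73 and 54 UMIs. The Cd4 class of these 2 cells rests on 1 and 2 Cd4 UMIs, and the Has2_TG library had only 3 Cd8 cells.

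Cells with neither coreceptor are set beside Cd4 cells here without the mixed barcodes. Rora had 1532 CPM in the Has2_TG and 944 CPM in the WT cells with neither, and 1495 and 606 CPM in Cd4 cells, so both classes lay in the same direction. Cxcr6 had 1457 and 520 CPM in cells with neither, found in 10 of 13 and 19 of 26, and 420 and 355 CPM in Cd4 cells. Icos had 1984 and 1220 CPM in cells with neither, but 975 and 1360 CPM in Cd4 cells. Satb1 had 1231 and 1581 CPM in cells with neither and 302 and 828 CPM in Cd4 cells. Il7r had 1607 and 1847 CPM in cells with neither and 823 and 1168 CPM in Cd4 cells. With the mixed barcodes, Cxcr6 in Cd4 cells had 271 and 355 CPM, the other direction. These genes were picked for this description after their values were seen.

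**Figure D4:**
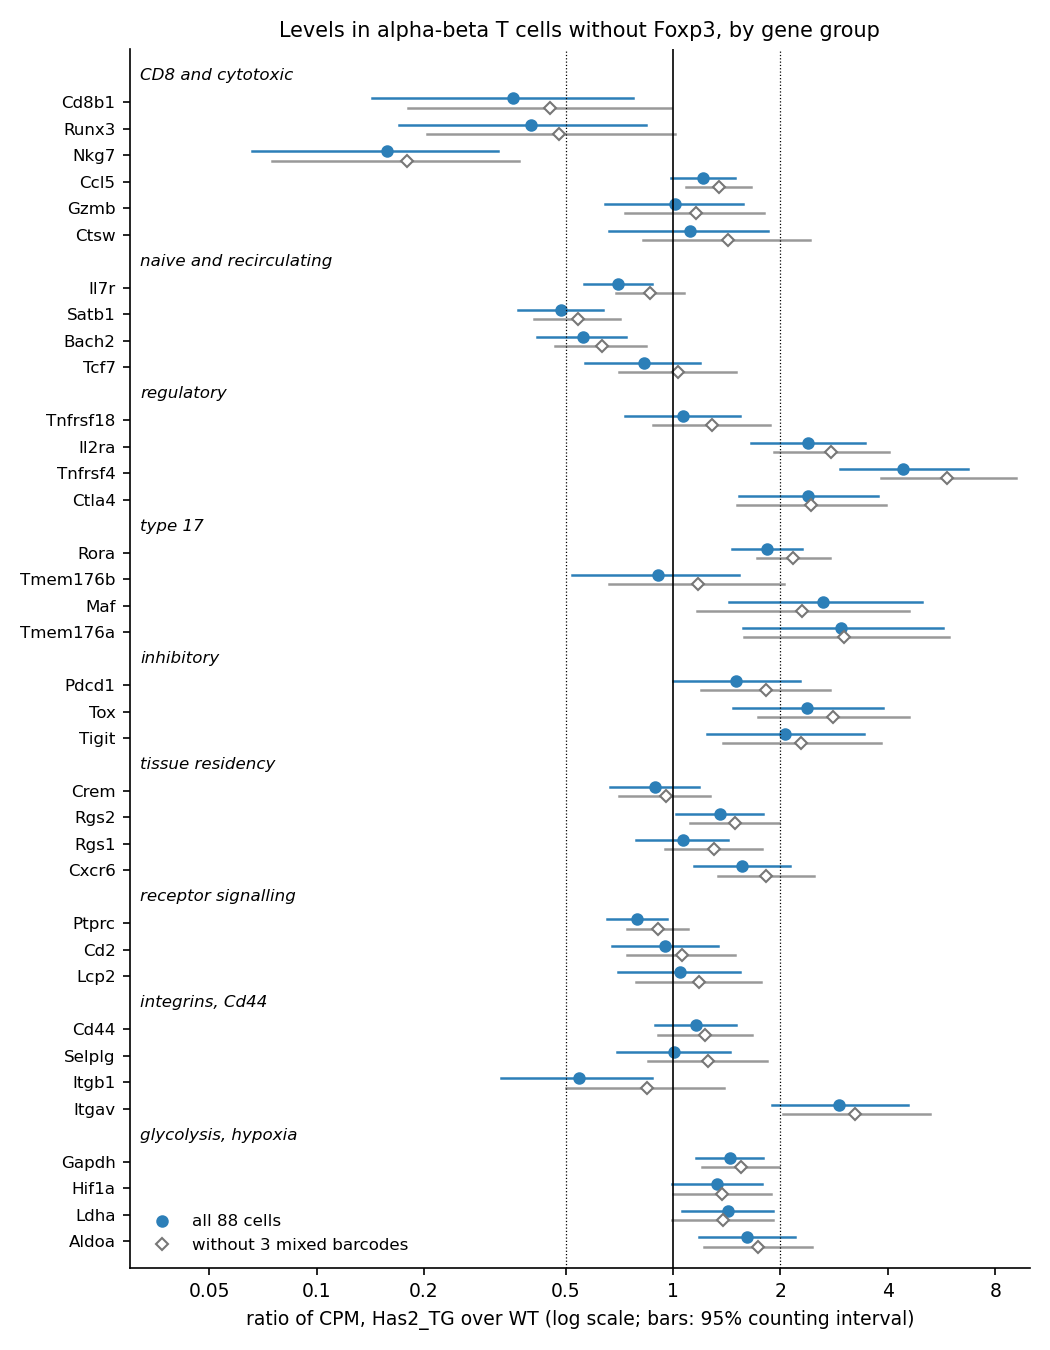
Ratio of summed CPM, Has2_TG over WT members (log axis), for genes grouped by role, with 95% intervals for counting error, over all 88 cells and without the 3 mixed barcodes. Tnfrsf4 at 4.40, Il2ra and Ctla4 at 2.38 lie to the right of 1 and Nkg7 at 0.157 and Cd8b1 at 0.355 to the left, while Cd2 and Gzmb lie near 1.

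Most of the remaining lists had small medians, and their direction was not firm. Of 23 lists with at least 3 measured genes, 16 had a median of the other sign under at least 1 alternative setting, such as Cd4 cells alone or the mixed barcodes left out. The 7 that did not were the regulatory, type 17, type 2, CD8 lineage, innate-like, glycolysis and cell isolation lists. Settings that left too few measured genes were not counted, so innate-like had 7 alternatives, type 2 and CD8 lineage 9 each and glycolysis 14. With at least 50 UMIs per gene, type 2 had 2 measured genes and a median of -0.63. In Cd8 cells alone glycolysis had 0.0098, below the 0.031 of all genes measured there. Receptor signalling genes had 12 of 12 measured, 7 higher and 1 past 2-fold, with a median log2 ratio of 0.04. Ptprc (CD45), the phosphatase of all leukocytes, had a ratio of 0.794 (0.653 to 0.962), and 0.908 without the mixed barcodes. Tissue residency genes had 8 of 12 measured, 5 higher and a median of 0.08, or 0.47 without the mixed barcodes. Among them Cxcr6, a homing receptor of skin T cells, had 83 UMIs in 17 Has2_TG cells and 92 UMIs in 38 WT cells, a ratio of 1.56 (1.15 to 2.12). Its share of cells was 53.1% in the Has2_TG and 67.9% in the WT members as counted, but 36.7% and 32.1% expected at 1000 UMIs, in the order of the levels. Type 1 genes had 6 of 10 measured and none past 2-fold, with Stat4 at 1.38 and Il18r1 at 1.26 (0.945 to 1.67). Follicular helper genes had 4 of 8 measured and a median of -0.18, and the measured CD4 lineage genes, 5 of 6, a median of 0.14. Costimulatory receptors had 8 of 9 measured, 6 higher and a median of 0.12, with Tnfrsf9 (4-1BB) at 1.89 (1.28 to 2.79). Cytokine receptors had 7 of 13 measured, 2 higher and a median of -0.15. Il2rb and Il2rg, the shared IL-2 receptor chains, had ratios of 0.900 (0.655 to 1.23) and 1.13 (0.844 to 1.52) beside the 2.38 of Il2ra. Chemokine receptors had 6 of 14 measured, 3 higher and 2 past 2-fold, with Cxcr4 at 0.934 (0.672 to 1.29). Recent receptor activation genes had 6 of 12 measured, 2 higher and a median of -0.34. Interferon response genes had 4 of 15 measured, 2 higher and a median of -0.33, with Ifi27l2a at 0.569 (0.408 to 0.783) over all members. In Cd4 cells alone the median was 0.86, or 1.49 there without the mixed barcodes, on 3 measured genes. Over all members, 1 cell held 46.1% of the Has2_TG UMIs of this list. Cell cycle genes had 3 of 14 measured and a median of -0.67, or 0.07 without the mixed barcodes, and 42.5% of the WT Hmgb2 UMIs lay in 1 cell. Secreted cytokines and chemokines had 5 of 22 measured, 1 higher and 2 past 2-fold lower, with a median of -0.09. Innate-like T cell genes had 3 of 8 measured and a median of -2.67, from Fcer1g and Tyrobp UMIs that lay mostly in the mixed WT barcode of the Cd8 class. Of 8 gamma-delta and type 17 innate markers 3 were found under their listed symbols, and of these only Maf was measured.

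Receptors for hyaluronan rested on Cd44 alone. Of 5 listed genes only Cd44 was measured, with 101 UMIs in 24 of 32 Has2_TG members and 151 UMIs in 33 of 56 WT members, or 718 and 621 CPM, a ratio of 1.16 (0.890 to 1.5). Hmmr had 0 and 3 UMIs, Tlr2 0 and 1, Tlr4 0 and 1, and Layn 0 and 0. Integrins and selectin ligands had 10 of 12 measured, 6 higher and 2 past 2-fold. These 2 were Itgav, the alpha chain of the vitronectin receptors, with 419 and 144 CPM (2.92, 1.89 to 4.56), and Itgb7, the beta chain that pairs with Itgae, with 178 and 69.9 CPM (2.54, 1.32 to 5.02). Itgb1 had 171 and 312 CPM, 0.546 (0.330 to 0.874), and 0.845 without the mixed barcodes.

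All measured glycolysis and hypoxia genes were higher in the Has2_TG members: 9 of 12 were measured, 9 were higher and 2 past 2-fold, with a median log2 ratio of 0.51. Without the mixed barcodes 8 were higher, with a median of 0.63. Gapdh had 1130 and 785 CPM, 1.44 (1.16 to 1.79), Ldha, which makes lactate, 626 and 440 CPM, 1.42 (1.06 to 1.90), and Aldoa 597 and 370 CPM, 1.61 (1.18 to 2.20). Hif1a, the oxygen-sensing factor, had 611 and 460 CPM, 1.33 (0.991 to 1.77). Genes that cell isolation can induce had 8 of 14 measured, 5 higher, 1 past 2-fold higher and 1 past 2-fold lower, with a median of 0.28, or 0.92 without the mixed barcodes. Junb had 633 and 378 CPM, 1.67 (1.24 to 2.26), and 3.27 without the mixed barcodes, and Jund 391 and 284 CPM, 1.38 (0.949 to 1.99). Their part in the other differences was not tested.

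Genes were also ranked by size, among those with at least 40 UMIs, at least 10 cells with a UMI in the higher library and no cell there with over 30% of its UMIs, at a level not below that of macrophages, neutrophils and fibroblasts. Tnfrsf4, at 4.40, was left out because 1 cell held 33.7% of its Has2_TG UMIs. The ratios furthest above 1 belonged to Ap2m1, an adaptor of endocytosis, with 192 CPM in the Has2_TG and 57.5 CPM in the WT members (3.34, 1.69 to 6.88), Rnf10 (2.95), Tmem176a, Itgav, Eprs (2.70, 1.70 to 4.35), Maf, Rnps1 (2.59) and Itgb7. Furthest below 1 after Nkg7 came Atp8b4, a lipid-moving ATPase, with 5 UMIs in 5 Has2_TG cells and 49 UMIs in 23 WT cells, 0.176 (0.0549 to 0.440). Also far below 1 were Xrn1 (0.247), Nup153 (0.252), Phf21a (0.258), Adk (0.273) and H2-Q5 (0.305), the last of which has near-identical copies that can share its reads. H2-Q5 had a ratio of 0.423 (0.143 to 1.04) without the mixed barcodes. Without the mixed barcodes Irs2 (4.60), Tex2 (3.07), Mdfic (2.82), Tox (2.80) and Il2ra (2.77) entered among the higher genes, and Cks2 (0.341) and Frg1 (0.338) among the lower.

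Cytokine RNA was rare. Of the members, 8 Has2_TG and 8 WT cells held any UMI of Ifng, Il4, Il5, Il13, Il17a, Il17f, Il22 or Csf2. Ifng was in 2 Has2_TG cells, with 3 UMIs in the mixed barcode and 1 in another, and in 3 WT cells with 3, 1 and 1. Il17f was in 2 Has2_TG cells, with 3 and 1 UMIs, and in 2 WT cells with 1 each. Il4 was in 2 Has2_TG cells with 1 each, and in 2 WT cells with 2 and 1. Il22 was at 0 in both. Type 2 genes had 5 of 12 measured, 3 higher and a median log2 ratio of 0.46. Il1rl1 (ST2), the IL-33 receptor, had 31 UMIs in 7 Has2_TG cells and 30 UMIs in 5 WT cells, 1.79 (1.05 to 3.06). Gata3, the factor of type 2 cells, had 1.37 (0.709 to 2.61). Areg, an EGF receptor ligand, had 8 UMIs in 3 Has2_TG cells and 62 UMIs in 5 WT cells, but 53 of the WT UMIs lay in 1 cell. That WT cell also held 13 UMIs of Il5 and 22 of Csf2, and it had neither coreceptor and no Trac, TRAV or TRBV UMI. It was the 1 doublet candidate of Scrublet among the 88 members. Without it type 2 genes had 3 measured, 2 higher and both past 2-fold, with a median of 1.07. Another WT cell with neither coreceptor held 3 UMIs of Il5, 2 of Il13, 1 of Il4 and 9 of Il1rl1. It had 2 UMIs of Trac and was not a doublet candidate. Both cells were singled out after their values were seen.

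Set beside gamma-delta T cells of the same library, each cell class in its own library, 335 (4.66%) of 7188 genes were at least 2-fold higher in the members in both libraries and 308 (4.28%) at least 2-fold lower. The T cell types were gated on receptor genes, so this is a description without a test. Ccl5, Lck, Cd4 and Themis led the higher genes. Lck had 41 UMIs in 19 of 32 members and 0 in 45 gamma-delta T cells of the Has2_TG library, and 62 UMIs in 32 of 56 members and 1 UMI in 135 gamma-delta T cells of the WT library. Themis, which tunes receptor signalling in alpha-beta cells, had 33 against 0 UMIs and 43 against 1. Ccl5 had 161 against 0 and 229 against 1. The keratinocyte genes Sprr1a and Cstdc5, which ranked among them, came from 1 mixed barcode per library, and without these barcodes, when 326 (4.83%) genes were higher and 299 (4.43%) lower, Cd28 and Gimap4 took their places.

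Lower in the members than in gamma-delta T cells were Scart1, Blk, Gcnt2, Cryba4, Sema6a and Batf3. Scart1, a scavenger receptor of IL-17-producing gamma-delta T cells of mice, had 14.2 against 1465 CPM in the Has2_TG library, a ratio of 0.0097 (0.00117 to 0.0354), and 37.0 against 1414 CPM in the WT library, 0.0262 (0.0119 to 0.0499). Blk had 35.5 against 685 CPM and 37.0 against 519 CPM, with ratios of 0.0519 (0.0165 to 0.124) and 0.0713 (0.0324 to 0.137). Gcnt2 and Cryba4 had ratios of at most 0.0534 in either library. Sema6a and Batf3 were at 0 UMIs in the members of both libraries, against 15 and 13 UMIs in the Has2_TG and 68 and 90 UMIs in the WT gamma-delta T cells.

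Set beside Foxp3 T cells, 220 (4.29%) of 5134 genes were at least 2-fold higher in the members of both libraries and 214 (4.17%) at least 2-fold lower. Ccl5 had 1144 against 25.7 CPM in the Has2_TG library and 941 against 12.7 CPM in the WT library. Plac8 had 40 UMIs in 4 members and 0 in Foxp3 T cells of the Has2_TG library, and 64 UMIs in 11 members and 0 in Foxp3 T cells of the WT library. The other leading genes were keratinocyte genes of the mixed barcodes. Without these, 172 (3.69%) of 4662 genes were higher and 180 (3.86%) lower, and Nkg7, Tcf7, Il12rb2 and Parp8 came next. Tcf7 then had 45 UMIs in 18 members against 0 in Foxp3 T cells of the Has2_TG library, and 86 UMIs in 31 members against 1 UMI in the WT library.

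Lower in the members than in Foxp3 T cells were Neb, Ccr2, Ankrd55, Itgb8, Lgmn and Ikzf2. Ikzf2 (Helios), a factor of regulatory T cells, had 149 against 1337 CPM in the Has2_TG library, 0.112 (0.0677 to 0.175), and 136 against 1449 CPM in the WT library, 0.0936 (0.0615 to 0.139). Ccr2, a receptor for monocyte-attracting chemokines, had 35.5 against 540 CPM and 57.5 against 788 CPM, with ratios of 0.0658 (0.0208 to 0.160) and 0.0730 (0.0378 to 0.132). Itgb8, an integrin chain that activates TGF-beta, had 4 UMIs in 1 Has2_TG member and 0 in the WT members, against 46 UMIs in 12 and 21 UMIs in 6 Foxp3 T cells. Il2ra, whose level differed between the libraries in the members, had 1491 CPM in Has2_TG and 1512 CPM in WT Foxp3 T cells, and 1238 and 1039 CPM in gamma-delta T cells.

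**Figure D5:**
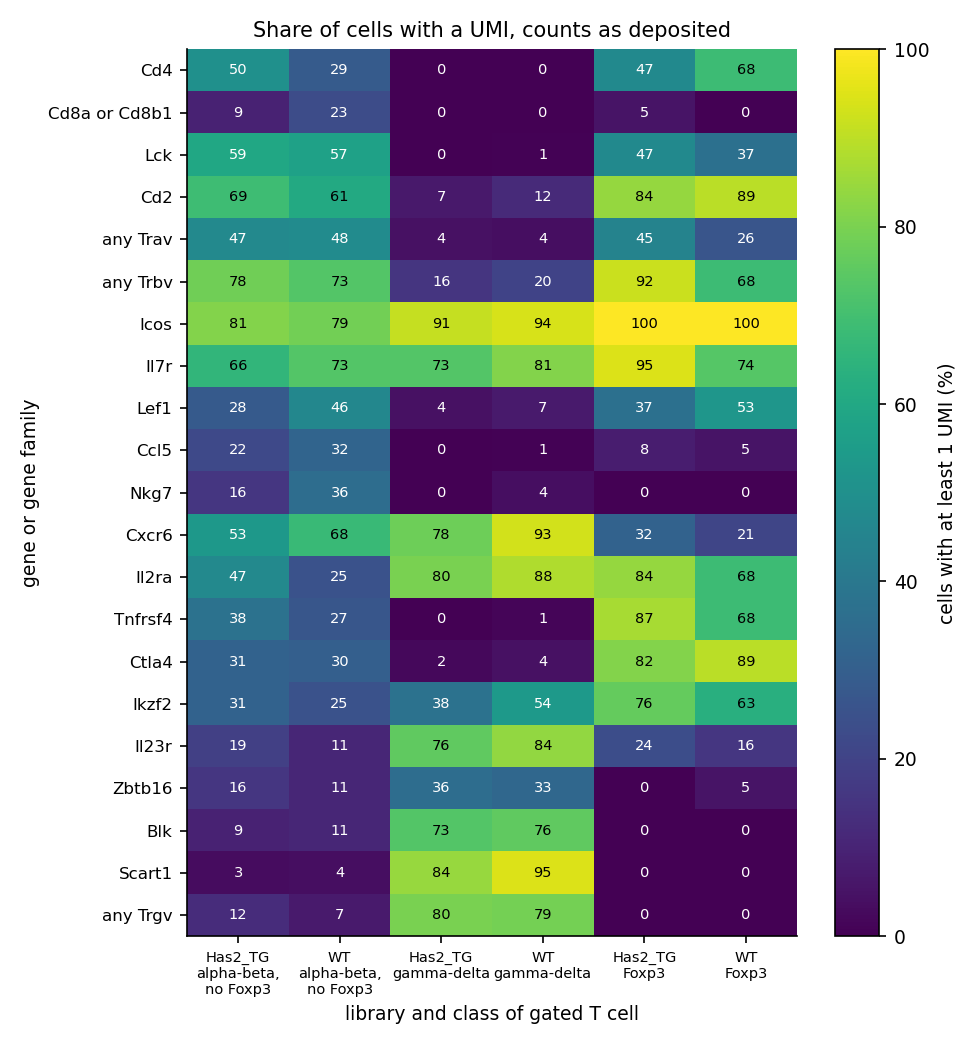
Percent of cells with at least 1 UMI of each gene or gene family, for alpha-beta T cells without Foxp3, gamma-delta T cells and Foxp3 T cells, each in the Has2_TG library and then the WT library. Lck was in 59.4% and 57.1% of members against 0% and 0.741% of gamma-delta T cells, and Icos in 81.2% and 78.6% of members.

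Within the members, Cd8 cells were set beside Cd4 cells. Of 2258 genes, 68 (3.01%) were at least 2-fold higher in Cd8 cells of both libraries and 71 (3.14%) at least 2-fold lower, with only 3 Cd8 cells in the Has2_TG library. In the Has2_TG library Nkg7 had 354 CPM in Cd8 cells, from 3 UMIs in 1 cell, and 54.1 CPM in Cd4 cells. In the WT library Nkg7 had 864 and 133 CPM, a WT ratio of 6.49 (3.18 to 15.0). The class II genes and Ifitm1 that ranked beside it came from the mixed WT barcode of the Cd8 class. Without the mixed barcodes the next genes were Itpkb, Pde7a, Grap2 and Spag9. Grap2, an adaptor of receptor signalling, had 1532 and 302 CPM in the Has2_TG library, 5.07 (2.28 to 10.9), and 1676 and 503 CPM in the WT library, 3.33 (2.22 to 5.12). The Has2_TG Cd8 value of Grap2 was 13 UMIs in 3 cells, 69.2% of them in 1 cell. That of Itpkb was 11 UMIs in 2 cells, 90.9% of them in 1 cell. The Cd8 cells held 8485 UMIs in all in the Has2_TG library, against 92375 in its Cd4 cells, and 62496 against 67643 in the WT library. Among the genes lower in Cd8 cells, Tnfrsf4 had 0 UMIs in Cd8 and 55 UMIs in Cd4 cells of the Has2_TG library, and 2 and 17 UMIs in the WT library. The upper limit of its ratio was 0.755 in the Has2_TG and 0.536 in the WT library. Tnfsf8 (CD30 ligand) had 0 UMIs in Cd8 cells of both libraries, against 26 UMIs in 7 Has2_TG and 46 UMIs in 9 WT Cd4 cells without the mixed barcodes. The upper limit of its ratio was 1.07 in the Has2_TG library, which includes 1, and 0.111 in the WT library. Tent5a, Serpinb1a and Palld lay in the same direction, Palld in 2 Cd4 cells of each library. With the mixed barcodes, their upper limits in the Has2_TG library were 1.11, 1.14 and 1.38, which include 1. In the WT library these limits were 0.246, 0.919 and 0.677. A single Cd4 cell held 77.4% of the Has2_TG and 81.8% of the WT Cd4 UMIs of Palld.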

How the data were processed

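UMI counts per gene and barcode were deposited as 1 matrix per library. The submitters' processing notes name Cell Ranger 9.0.1 and GRCm39. These deposited counts were used without correction for free RNA. Barcodes were filtered and gated as given in the report, in Python 3.11.15 with numpy 2.4.6, scipy 1.17.1 and pandas 2.3.3, and UMIs were summed over the members of each library and scaled to CPM. Intervals are exact (Poisson for sums, Clopper-Pearson for shares, conditional binomial for ratios). UMIs of 1 cell are not independent, so intervals are too narrow for differences between cells. Expected shares at 1000 UMIs are exact means over all thinnings. Scrublet (scanpy 1.11.5) marked 0% of Has2_TG and 1.40% of WT barcodes at its automatic threshold and has not worked here, so candidates were the highest scores at 0.4% per 1000 barcodes. TMM factors (edgeR 4.0.16) served as an alternative scaling without a test. Members and lists were chosen with earlier results of these data known. Genes were named by level rank within a list, at most 4 a list, or by the largest ratio under minima of UMIs and cells, with at most 30% of the UMIs in 1 cell of the higher library. Any other gene or cell given with values was added after its values were seen. The code was tested on simulated counts. Results for some genes are not reported here.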

Additional observations from a re-analysis of the deposited data

How the results depend on the processing

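No paired analysis was possible because each genotype has 1 library, and no replicate could be left out for the same reason. The share of kept barcodes had a ratio of 0.664 to 0.875 under every alternative gate tried. Thinned to 1000 UMIs, Cd4 cells were 21.3% of Has2_TG and 13.6% of WT members and cells with neither coreceptor 71.8% and 73.1%. With 2 UMIs per class, Has2_TG members were 31.2% Cd4, 6.25% Cd8 and 62.5% neither. WT members were 19.6% Cd4, 12.5% Cd8 and 67.9% neither. With 2 UMIs per segment the Has2_TG members had 9 TRAV segments and the WT members 8. Genes 2-fold higher in the Has2_TG members numbered 38 after thinning, 63 with at least 50 UMIs, 949 with at least 5 UMIs, 67 in Cd8 cells alone, 89 in Cd4 cells without the mixed barcodes and 104 without the top cell of each gene. Genes 2-fold lower numbered 45 after thinning, 69 with at least 50 UMIs, 1156 with at least 5, 203 in Cd4 cells alone, 94 in Cd4 cells without the mixed barcodes, 102 in Cd8 cells alone and 209 (6.75% of 3095 genes) without the mixed barcodes. After thinning, 134 genes were higher and 149 lower than in gamma-delta T cells and 43 higher and 76 lower than in Foxp3 T cells. These settings also measure fewer or more genes. The other counts are given without shares, so they cannot be set against the 5.85% higher and 9.51% lower of the main setting. The log2 ratio changed sign for Itgb7 (-0.29), Rnps1 (-0.58) and Phf21a (0.0734) in Cd8 cells alone, which are 3 in the Has2_TG library, and for Maf (-0.0217) in Cd4 cells without the mixed barcodes. Of 23 list medians 16 changed sign under at least 1 setting that left enough measured genes. These medians ranged from -0.49 to 0.44 for receptor signalling, -0.89 to 0.51 for CD4 lineage, -1.16 to 0.71 for naive, -0.52 to 0.47 for residency, -1.83 to 0.16 for cytotoxicity, -0.18 to 0.52 for type 1, -1.09 to 0.28 for follicular helper, -0.12 to 1.35 for inhibitory, -0.17 to 0.50 for costimulatory, -0.36 to 0.22 for cytokine receptor, -0.45 to 0.63 for chemokine receptor, -0.20 to 0.56 for secreted cytokine, -0.58 to 0.24 for recent activation, -0.34 to 1.01 for integrin, -0.87 to 1.49 for interferon and -1.10 to 0.35 for cell cycle genes. The cause was not tested. The removal of mixed barcodes was chosen after seeing the data.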
